A study of Mus musculus with 6 samples.

Results

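The rows studied here are those of miR-26a and miR-26b in a table of liver miRNAs, and they were chosen by name alone. A row belonged when its miRNA name began with mmu-miR-26a- or mmu-miR-26b-. This gave 5 of the 1039 rows of the table, 2 for the 5p arms of the hairpins and 3 for the 3p arms. The 5p arms, mmu-miR-26a-5p and mmu-miR-26b-5p, were called the guide strands because they held nearly all the reads, and the 3p arms the passenger strands. The libraries came from whole liver of wild type ICR mice, an outbred stock, aged 30 weeks and kept on high-fat diet (HFD). After 12 weeks of HFD, the J group (n = 3 mice) was gavaged with JTXK granule, a Chinese herbal formula, for 8 weeks, and the M group (n = 3 mice) was gavaged with sterile water over that time. No library from mice without HFD was analysed here, and each library was 1 mouse. The question was whether the miR-26 strands differed between treated and untreated diabetic mice.

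A miRNA is a short RNA cut from a hairpin. Its guide strand is held by an Argonaute protein and pairs with mRNAs mainly through bases 2 to 8, the seed, while the passenger strand is mostly degraded. The miR-26 hairpins lie in introns of the Ctdsp genes, which encode small phosphatases of the RNA polymerase II tail, and they are transcribed along with these hosts. In liver, miR-26a is known for lowering Ezh2, the histone methyltransferase, for restraining hepatocyte growth, and for roles in insulin sensitivity, glucose output and fatty acid synthesis.

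The strands are printed 5′ to 3′ because the comparison of guide strands and of hairpins turns on where they differ. The sequences are those of RefSeq (GRCm38.p6), the seed is in capitals, and all 5 rows were matched.
mmu-miR-26a-5p: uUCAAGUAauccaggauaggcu
mmu-miR-26b-5p: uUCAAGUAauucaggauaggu
mmu-miR-26a-1-3p: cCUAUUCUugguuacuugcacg
mmu-miR-26a-2-3p: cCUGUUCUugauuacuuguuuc
mmu-miR-26b-3p: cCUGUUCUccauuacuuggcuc

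Both guide strands have the same seed and the same 10 bases at the 5′ end. Positions are counted from 1 at the 5′ end, without gaps, and the base of the strand named first is given first. Over the 21 bases compared, mmu-miR-26a-5p and mmu-miR-26b-5p differ by C11U and C21U, and mmu-miR-26a-5p is 1 base longer. No other mature miRNA in the RefSeq table has their seed. A RefSeq sequence was found for 653 of the rows with mouse names, and the seeds of the other rows of the table were not examined. Among the passenger strands, mmu-miR-26a-2-3p and mmu-miR-26b-3p have a common seed although they come from different genes, and differ by U9C, G10C, U19G and U20C. In RefSeq mmu-miR-6932-3p and mmu-miR-7039-3p also have this seed, and neither has a row here. The seed of mmu-miR-26a-1-3p differs from that of mmu-miR-26a-2-3p by A4G.

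Mature mmu-miR-26a-5p is made from 2 genes, which its reads do not tell apart. Mir26a-1 lies on chromosome 9 (GRCm38, chr9:119031796-119031885, plus strand) in intron 5 of Ctdspl, an intron of 3283 bases. Mir26a-2 lies on chromosome 10 (chr10:126995530-126995613, plus strand) in intron 5 of Ctdsp2, 241 bases before the next exon. Mir26b lies on chromosome 1 (chr1:74394310-74394394, plus strand) in intron 4 of Ctdsp1, an intron of only 564 bases. All 3 hairpins have the strand of their host. These introns are those of a principal protein-coding transcript in GENCODE, and in 2 other transcripts of Ctdsp2 an exon overlaps Mir26a-2. The passenger strands, unlike mmu-miR-26a-5p, each belong to a single gene.

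The libraries held 2626353 to 4314134 miRNA reads, with the highest in J group replicate 1 and the lowest in M group replicate 1. Values are RPM, the reads of a miRNA scaled so that all miRNA reads of a library sum to 1000000, and a change in abundant miRNAs therefore moves all the others. M group replicate 1 stood apart, with a mean Pearson correlation of 0.937 with the other libraries over the tested miRNAs, against 0.969 to 0.974 for the other 5. In the labels its prefix differs from the one shared by the other M group libraries, and what the prefix stands for is not given. Of the marker miRNAs, those of hepatocytes (4 of 4 in the table, among them miR-122 and miR-192) summed to 329007 to 378100 RPM in the J group, against 333259 to 379781 RPM in the M group, so liver's defining miRNAs were high in all 6 libraries. The summed markers of immune cells (6 of 6 in the table) were 763 to 1108 RPM in the J group, against 1383 to 4782 RPM in the M group, the highest in M group replicate 1, and the groups did not overlap. Their part in the miR-26 values was not tested. Summed markers of stromal cells (4 of 5 in the table) were 12582 to 16890 RPM in the J group, against 16765 to 25242 RPM in the M group. The groups also overlapped for endothelium (1 of 2), red blood cells (3 of 4) and bile duct epithelium (5 of 5). In whole liver, fewer cells of a type and less RNA per cell cannot be told apart.

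mmu-miR-26a-5p was an abundant liver miRNA and ranked 10 to 13 of all rows in the 6 libraries. It had 12075, 16267 and 15831 RPM in J group replicates 1, 2 and 3, and 14303, 18801 and 15673 RPM in the M group replicates. J group replicate 1 was the lowest library and M group replicate 2 the highest, and the other 4 libraries lay between, so the groups overlapped. By group this was 14724 ± 2305 RPM for J and 16259 ± 2306 RPM for M (SD, n = 3 each). These rest on 37565 to 67324 reads per library. mmu-miR-22-3p and mmu-let-7f-5p ranked next above it by mean RPM, and mmu-miR-194-5p and mmu-let-7g-5p next below. Of these 4, only mmu-let-7g-5p was on the same side in all 6 libraries, and mmu-miR-194-5p was above it in 2.

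mmu-miR-26b-5p was the lesser guide strand and ranked 34 to 42. It had 2593, 3081 and 2669 RPM in J group replicates 1, 2 and 3, and 2721, 2836 and 3252 RPM in the M group replicates. The highest library was M group replicate 3 and the lowest J group replicate 1, and the groups overlapped. The group values were 2781 ± 262 RPM (SD, n = 3) and 2937 ± 279 RPM (SD, n = 3) in the J and M groups, from 7147 to 13970 reads per library. By mean RPM it stood between mmu-miR-16-5p and mmu-miR-5099, each of which was above it in 2 of the 6 libraries, so its place in that order was not fixed.

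**Figure D1:**
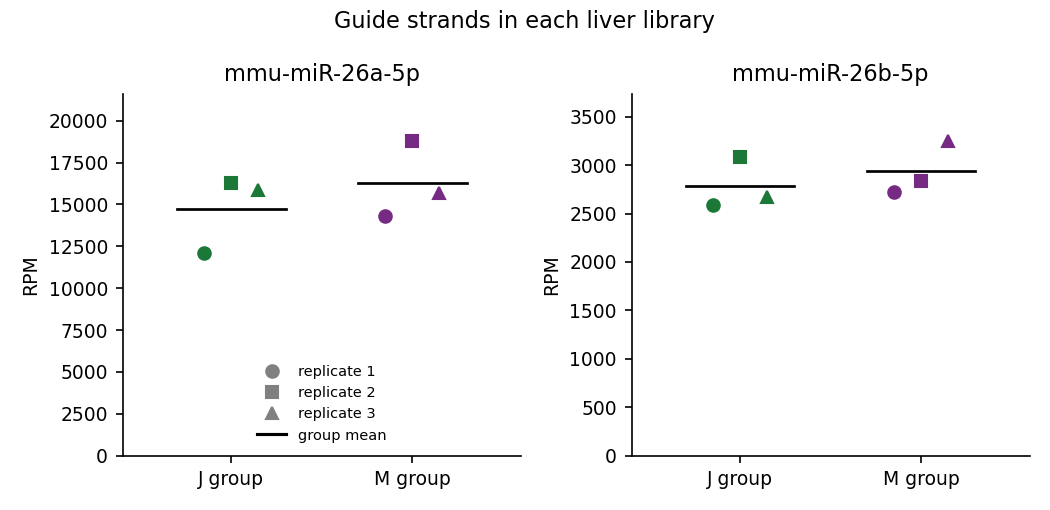
RPM of mmu-miR-26a-5p (left) and mmu-miR-26b-5p (right) in each library of the J and M groups, with the replicate shown by the shape of the point and the group mean by a line. The M group means are higher, 16259 against 14724 RPM and 2937 against 2781 RPM, and the libraries of both groups overlap in each panel.

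Neither guide strand differed between the groups by more than the spread between mice. The groups were compared by limma on log2(RPM + 1), fitted to 548 miRNAs whose mean exceeded 1 RPM in either group. A miRNA was called when its absolute log2 fold change was above 0.3 and its unadjusted p under 0.05, the study's own thresholds. On the log2 scale, mmu-miR-26a-5p in the J group differed from the M group by -0.15, with a standard error of 0.17 (limma, adjusted p = 0.79). Its 95% interval reached from -0.55 to 0.26, or 0.683-fold to 1.20-fold, so these mice leave a difference anywhere in that range possible. The value of mmu-miR-26b-5p was -0.08 with a standard error of 0.16 (limma, adjusted p = 0.87) and an interval from -0.45 to 0.29, or 0.733-fold to 1.22-fold.

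Of the 4 miR-26 rows tested, 0 were called by limma and 0 had an unadjusted p under 0.05, where 29 of all 548 tested miRNAs were called (5.29%). Groups without overlap numbered 0 among these 4 and 74 over the tested miRNAs (13.5%). On the reads, edgeR and DESeq2 likewise called 0 of the 4, against 45 (8.21%) and 36 (6.57%) of all. These calls rest on unadjusted p, since the adjusted p was under 0.05 for 0 miRNAs with limma or edgeR and 2 with DESeq2. The median log2 fold change over all tested miRNAs was -0.13, which median-of-ratios scaling brought to -0.04 and quantile normalization to 0.08. Relative to that median, mmu-miR-26a-5p was at -0.014 and mmu-miR-26b-5p at 0.053. The sign of mmu-miR-26b-5p changed with the scaling, at 0.028 by median of ratios and 0.13 by quantiles, whereas mmu-miR-26a-5p was below 0 under both (-0.039 and -0.090).

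**Figure D2:**
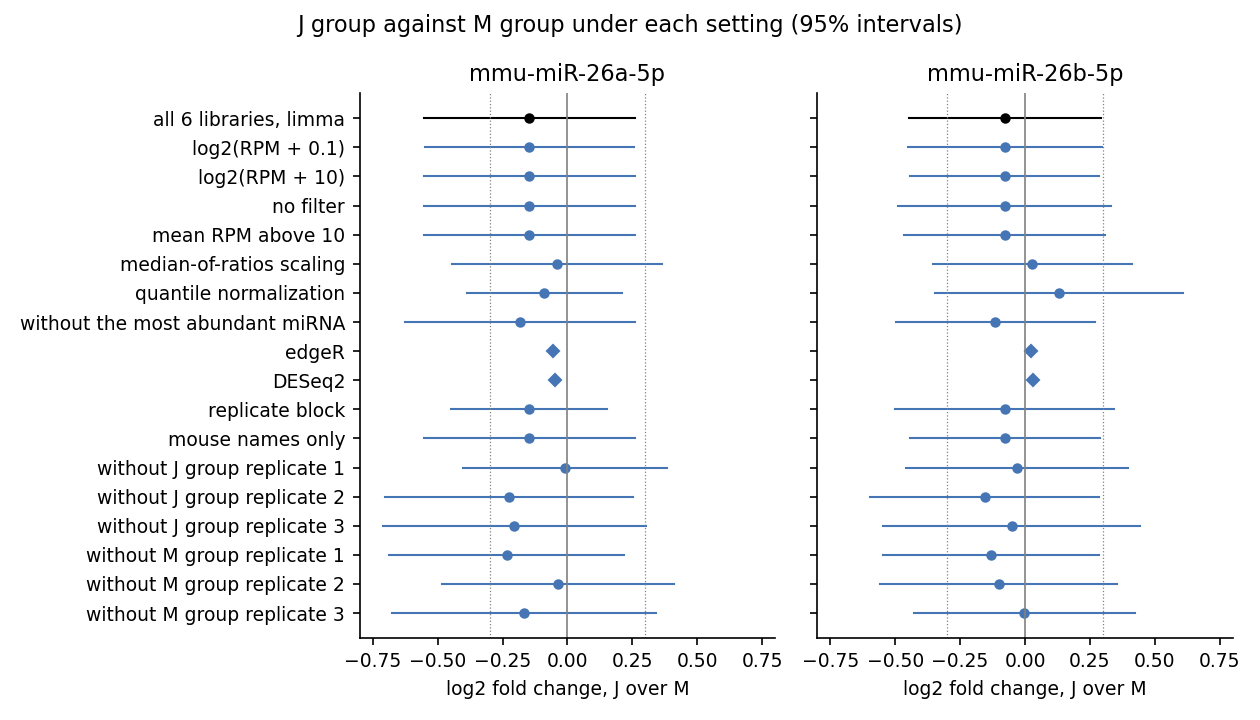
Log2 fold change of the J over the M group for both guide strands with all 6 libraries (black) and under each alternative (blue), with 95% intervals as lines, points without a line for edgeR and DESeq2, and dotted lines at the threshold of 0.3. For mmu-miR-26a-5p the points lie from -0.23 to -0.0095, for mmu-miR-26b-5p from -0.15 to 0.13, and every interval drawn crosses 0.

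The sum of both guide strands, which share the seed, was 14668, 19348 and 18500 RPM in J group replicates 1, 2 and 3, and 17024, 21637 and 18925 RPM in the M group replicates. J group replicate 1 was again the lowest. By group the sum was 17505 ± 2493 RPM for J and 19196 ± 2318 RPM for M (SD, n = 3 each), a log2 difference of -0.14 (exact two-sided permutation test, p = 0.5, where the smallest p that 3 against 3 allow is 0.1). This difference ranged from -0.22 to -0.014 with each library left out, and was -0.029 by median-of-ratios scaling. The sum was 1.47% to 2.16% of all miRNA reads of a library.

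The balance of both guide strands can be read within a library, where scaling has no part. The ratio of mmu-miR-26a-5p to mmu-miR-26b-5p was 4.66, 5.28 and 5.93 in J group replicates 1, 2 and 3, and 5.26, 6.63 and 4.82 in the M group replicates. mmu-miR-26a-5p was thus the more abundant in every library, and the groups were mixed along the range. By group the ratio was 5.29 ± 0.637 for J and 5.57 ± 0.944 for M (SD, n = 3 each), a log2 difference of -0.07 (exact two-sided permutation test, p = 0.7). This difference was above 0 without J group replicate 1 (0.02) or M group replicate 2 (0.065). The share of mmu-miR-26b-5p among both guide strands ranged from 13.1% in M group replicate 2 (95% Wilson interval 12.9% to 13.4%) to 17.7% in J group replicate 1 (17.4% to 18.0%). Such intervals hold the error of counting alone, because copies made by PCR count as separate reads, and they do not cover differences between library preparations.

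Between mice of a group, both guide strands varied less than the median abundant miRNA. The pooled SD of log2(RPM + 1) within groups was 0.22 for mmu-miR-26a-5p and 0.13 for mmu-miR-26b-5p, and the median over the 136 other mouse miRNAs with a mean of at least 100 RPM was 0.28. For mmu-miR-26a-5p 47 of these 136 had a smaller SD, and for mmu-miR-26b-5p 15. The coefficient of variation over the 6 libraries was 14.4% for mmu-miR-26a-5p and 8.99% for mmu-miR-26b-5p, where counting alone gives at most 0.516% and 1.18%.

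The passenger strands were rare. The reads of mmu-miR-26b-3p numbered 46, 78 and 36 in the mice of the J group and 55, 51 and 45 in those of the M group, each in the order of replicates 1 to 3. This gave 10.7, 21.8 and 12.8 RPM in the J group, against 20.9, 14.95 and 10.5 RPM in the M group, with a high library in each group. The group values were 15.1 ± 5.89 and 15.5 ± 5.25 RPM (SD, n = 3), a difference of -0.043 on the log2 scale with a standard error of 0.38 (limma, adjusted p = 0.98). Its sign changed under both scalings, in edgeR and DESeq2, and without some of the libraries. In the same order mmu-miR-26a-2-3p was read 39, 25 and 28 times in the J group and 36, 28 and 43 times in the M group. At 9.04, 6.98 and 9.98 RPM against 13.7, 8.21 and 10.01 RPM the groups overlapped. Its mean was 8.67 ± 1.54 RPM in the J group, against 10.6 ± 2.80 RPM in the M group (SD, n = 3), a difference of -0.25 on the log2 scale with a standard error of 0.31 (limma, adjusted p = 0.80). The value moved to -0.072 without M group replicate 1, the library that stood apart, and to -0.41 without M group replicate 2.

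mmu-miR-26a-1-3p, the passenger strand of the Ctdspl intron, was close to absent. It was found in 1, 4 and 0 reads of J group replicates 1 to 3 and in 1, 0 and 0 reads of their M group counterparts, and it was the member left out by the filter on low values. A count of 3 reads, the limit for a library at 0, corresponds to 1.07 RPM in J group replicate 3, and to 0.880 and 0.698 RPM in M group replicates 2 and 3. Only J group replicate 2 was above 3 reads, at 1.12 RPM (95% Wilson interval 0.434 to 2.87 RPM). Since the passenger strands tell the miR-26a genes apart, they could be set against each other: of the 205 passenger reads of miR-26a, 199 were those of mmu-miR-26a-2-3p from the Ctdsp2 intron (97.1%, 95% Wilson interval 93.8% to 98.7%). The share was 86.2% in J group replicate 2 and 97.3% to 100% in the others. This describes the passenger strands and does not measure how much of mmu-miR-26a-5p came from each gene.

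**Figure D3:**
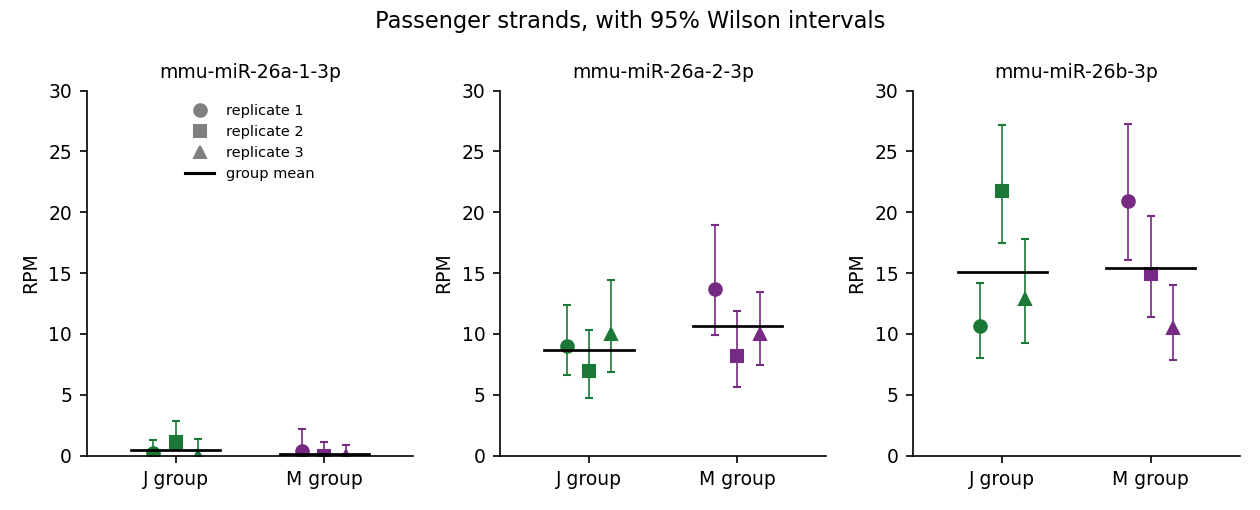
RPM of the 3 passenger strands in each library with 95% Wilson intervals (counting error only), on the same axis, with the group mean as a line. mmu-miR-26a-1-3p lies between 0 and 1.12 RPM, mmu-miR-26a-2-3p between 6.98 and 13.7 RPM and mmu-miR-26b-3p between 10.5 and 21.8 RPM, with the groups overlapping in each panel.

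The passenger share was higher for miR-26b than for miR-26a. The miR-26a share pools both of its genes, whose guide reads cannot be told apart, so neither miR-26a hairpin has a share of its own. For miR-26b, 311 of 60812 reads were passenger (0.511%, 95% Wilson interval 0.458% to 0.571%), and for miR-26a 205 of 324002 (0.0633%, 0.0552% to 0.0725%), both over all 6 libraries. The miR-26b share was higher in 6 of 6 libraries, by 5.03-fold to 14.1-fold, and the Wilson intervals of both shares did not overlap in any of the 6. Although its guide strand was less abundant, miR-26b thus had more passenger reads than miR-26a in each library. This is a description of these libraries, since both strands of a hairpin share a library and differences in how well a strand enters the library were not measured.

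The ratio of guide to passenger reads did not differ between the groups beyond their spread. For miR-26a the ratio was 1302, 2010 and 1586 in J group replicates 1, 2 and 3 and 1015, 2290 and 1566 in the M group replicates. The log2 difference of J from M was 0.06 (exact two-sided permutation test, p = 0.9, over 3 against 3 mice). For miR-26b the ratio was 243, 141 and 208 in the J group replicates and 129.9, 190 and 310 in the M group replicates, a log2 difference of -0.03 (exact two-sided permutation test, p = 1). M group replicate 1 had the lowest ratio for both miR-26a and miR-26b. These ratios rest on 28 to 78 passenger reads, and each changed sign when certain single libraries were left out.

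**Figure D4:**
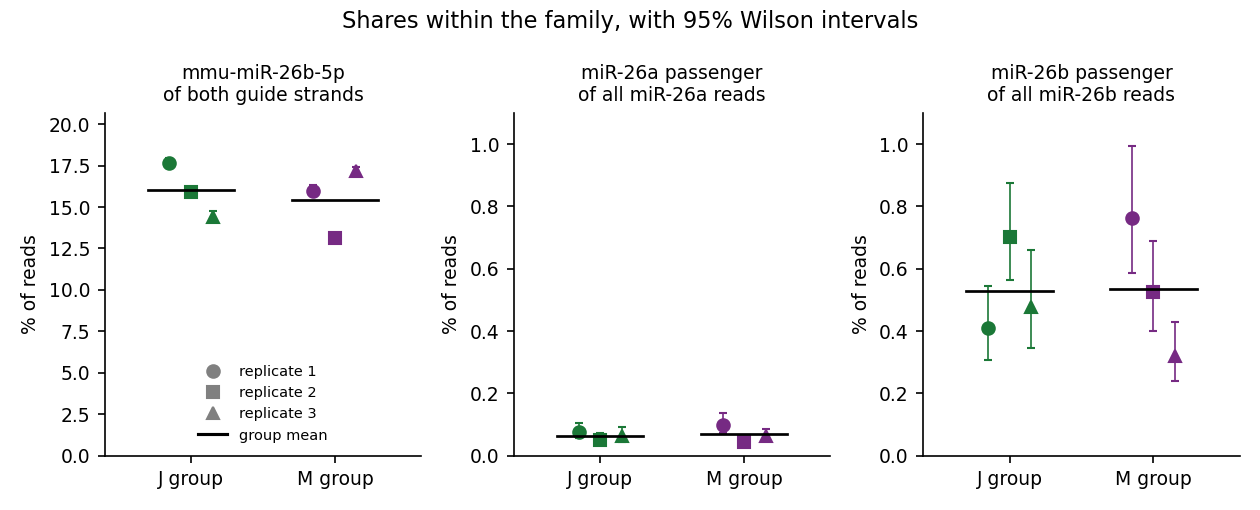
Share of mmu-miR-26b-5p among reads of both guide strands (left), and share of passenger reads among all reads of miR-26a (middle) and miR-26b (right), per library with 95% Wilson intervals and the group mean as a line. The passenger share is 0.0436% to 0.0984% for miR-26a and 0.321% to 0.764% for miR-26b, on the same axis, and J and M libraries overlap in each panel.

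The place of the 5 rows in the table spans most of its range. By mean RPM over the 6 libraries, mmu-miR-26a-5p ranked 11, mmu-miR-26b-5p 37, mmu-miR-26b-3p 248, mmu-miR-26a-2-3p 285 and mmu-miR-26a-1-3p 676 of the 1039 rows. From mmu-miR-26a-5p at 15492 RPM to mmu-miR-26a-1-3p at 0.288 RPM, the strands of the same hairpin family thus differ by several orders of magnitude.

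**Figure D5:**
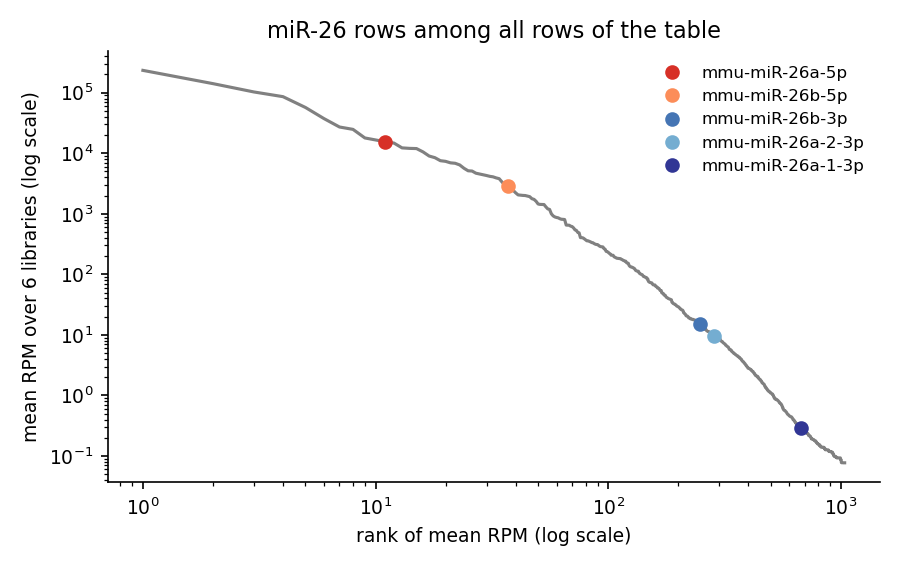
Mean RPM over the 6 libraries against its rank, both on log scales, for all rows above 0 (grey line) and the 5 miR-26 rows (points). The guide strands rank 11 and 37, and the passenger strands 248, 285 and 676.

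The pattern of mmu-miR-26a-5p over the 6 libraries was set beside those of the 137 other mouse miRNAs with a mean of at least 100 RPM, by the root mean square distance of log2(RPM + 1) after centring each on its own mean. All points share the libraries and their scaling, so this is a description. The closest was mmu-miR-29a-3p (distance 0.07), a miRNA known for targeting collagen mRNAs, followed by mmu-miR-501-3p (0.11), mmu-miR-122-5p (0.11), the hepatocyte miRNA, mmu-miR-29b-3p (0.11) and mmu-let-7c-2-3p (0.12). mmu-miR-26b-5p, with a distance of 0.17, ranked 17. Closest to mmu-miR-26b-5p were mmu-miR-30b-5p (0.05), mmu-miR-10a-5p (0.07), mmu-miR-130a-3p (0.08), mmu-miR-125b-2-3p (0.08) and mmu-miR-28a-3p (0.09), and mmu-miR-26a-5p ranked 34. The guide strands were therefore not each other's nearest in pattern.

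Other intronic miRNAs of paralogous host genes formed a list of 9, such as miR-103 and miR-107 of the Pank genes of coenzyme A synthesis and miR-33 of Srebf2, a regulator of sterol synthesis. Of the 9, the table held 7, and 6 could be tested. Of these 6, 0 were called higher or lower by limma, 0 had an unadjusted p under 0.05, edgeR called 0 and DESeq2 called 1, where the shares over all tested miRNAs were 5.29% for limma, 8.21% for edgeR and 6.57% for DESeq2. Below 0 lay 5 of the 6, and 323 of all 548 tested. Their median log2 fold change was -0.29, against -0.11 over the 4 miR-26 rows and -0.13 over all tested miRNAs. mmu-miR-103-3p had 1696 ± 98.1 and 2144 ± 456 RPM (SD, n = 3) in the J and M groups, and mmu-miR-107-3p had 812 ± 175 and 963 ± 166 RPM. mmu-miR-128-3p, the miRNA that DESeq2 called, had 290 RPM in M group replicate 1 and 25.3 to 39.9 RPM in the other 5 libraries. Its log2 fold change was -1.21 in limma and -0.22 without that library.

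A second list held 18 miRNAs with known roles in liver insulin action and lipid metabolism, 3 of which are also in the list of intronic miRNAs. All 18 were tested, 0 were called in either direction by limma, edgeR or DESeq2 (5.29%, 8.21% and 6.57% over all tested), and 0 had an unadjusted p under 0.05 in limma. Of the 18, 15 were below 0, against 323 of all 548, with a median log2 fold change of -0.16 (-0.52 to 0.21) against -0.13 over all. In 3 of the 18 the groups had no overlap, against 74 of all 548 (13.5%). The 3 most abundant were mmu-miR-122-5p with 224136 ± 13421 and 243182 ± 16722 RPM (SD, n = 3), mmu-miR-21a-5p with 152012 ± 33470 and 130315 ± 19314 RPM, and mmu-miR-148a-3p with 51059 ± 10798 and 62860 ± 6844 RPM, in the J and M groups. mmu-miR-26a-5p, at -0.15, lay near the median of this list.

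The names of some rows carry a range, whose meaning is not given in the sources used here. It reads 5 to 22 of 22 for mmu-miR-26a-5p and 1 to 21 of 21 for mmu-miR-26b-5p. Of the 619 mouse rows with a range, 464 begin at 1 and 8 have a forward range that begins at 5. The 18 bases of mmu-miR-26a-5p within its range include C11U and C21U, and they occur in 0 other mature miRNAs of the RefSeq table. Whether reads of either guide strand were counted under the other cannot be told from the RPM.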

How the data were processed

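Small RNA libraries were made by the authors from the liver of 3 J group and 3 M group mice with the NEBNext small RNA kit and sequenced on an Illumina HiSeq. The authors filtered the raw reads, identified known and predicted miRNAs from the distinct sequences with Rfam and miRBase, and deposited RPM, scaled to the miRNA reads of each library. The labels name mm9 without a role. The aligner, mismatch rule and treatment of reads matching several miRNAs are not given in the sources used here. The table gives no coordinates, so positions are those of GENCODE and RefSeq for GRCm38.

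All values above 0 were whole multiples of 1 read (100% within 0.01 read), and reads were recovered from them. Groups came from the labels. RPM was compared as log2(RPM + 1) by limma 3.58.1 in R 4.3.3 (lmFit, eBayes with trend, two-sided, Benjamini-Hochberg over 548 miRNAs whose mean exceeded 1 RPM in either group). Sums and ratios were compared by exact two-sided permutation tests (scipy 1.17.1, Python 3.11.15). edgeR 4.0.16 and DESeq2 1.42.0 on the reads were alternatives, beside other pseudocounts, filters, scalings, a replicate block, mouse names alone and each library left out. Figures were drawn with matplotlib 3.10.9.

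The text names all miR-26 rows, their neighbours in mean RPM, the 5 miRNAs of most similar pattern and, of each list, those called and the 3 most abundant. Marker lists were given as summed RPM. The members and lists were chosen with earlier results of these data known. Nothing says how the mice were picked beyond their group. The p-values set a group difference against the spread between these 6 mice, and those of limma also draw on the spread of the other tested miRNAs.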

Additional observations from a re-analysis of the deposited data

How the results depend on the processing

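Each of the 4 miR-26 rows tested had 17 alternatives, and 0 of these called it, and the adjusted p of mmu-miR-26a-5p ranged from 0.725 to 0.989. mmu-miR-26a-5p and mmu-miR-26a-2-3p kept their sign under all 17, and the summed guide strands under all 11 of theirs. The sign of mmu-miR-26b-5p turned with edgeR (0.023), DESeq2 (0.032), median-of-ratios scaling (0.028) and quantile normalization (0.13), and that of mmu-miR-26b-3p with the same (0.066, 0.078, 0.056 and 0.071), the cause of which was not tested. With each library left out, mmu-miR-26a-5p ranged from -0.23 to -0.0095, mmu-miR-26b-5p from -0.15 to -0.0027, mmu-miR-26a-2-3p from -0.41 to -0.072 and mmu-miR-26b-3p from -0.32 to 0.19. mmu-miR-26b-3p was above 0 without J group replicate 1 (0.16), J group replicate 3 (0.036) or M group replicate 1 (0.19). The log2 difference of the summed guide strands then ranged from -0.22 to -0.014. That of the ratio of mmu-miR-26a-5p to mmu-miR-26b-5p ranged from -0.17 to 0.065 and was above 0 without J group replicate 1 (0.02) or M group replicate 2 (0.065). The log2 difference of guide to passenger reads ranged from -0.24 to 0.35 for miR-26a, below 0 without J group replicate 2 (-0.10) or M group replicate 1 (-0.24). For miR-26b it ranged from -0.33 to 0.30, above 0 without J group replicate 2 (0.19) or M group replicate 3 (0.30). The count of 29 called miRNAs over the whole table was 45 with edgeR and 21 to 46 with each library left out, the most without M group replicate 2. Median-of-ratios scaling gave 17 higher and 13 lower, quantile normalization 20 higher and 11 lower, against 8 higher and 21 lower with all 6 libraries in limma.

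The replicate numbers gave no sign of pairing, with correlations of -0.0059 to 0.058 between the deviations of same-numbered libraries. With the replicate number as a block, 27 miRNAs were called, and mmu-miR-26a-5p had a log2 fold change of -0.15 and mmu-miR-26b-5p of -0.08, neither called. mmu-miR-26a-1-3p was tested only with no filter. Counting error is larger for the passenger strands, which rest on fewer reads than the guide strands. For mmu-miR-26b-3p, the Wilson intervals of J group replicates 1 (7.99 to 14.2 RPM) and 2 (17.4 to 27.2 RPM) did not overlap. Those of mmu-miR-26a-2-3p overlapped within each group. How far depth or the number of mice limits each strand was not tested.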
